A study of Mus musculus with 8 samples.

Results

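Neurotrophin and GDNF-family signalling was followed through 9 genes chosen by name: the ligands Bdnf, Ntf3 and Gdnf, the neurotrophin receptors Ntrk2, Ntrk3 and Ngfr, and the GDNF-family receptors Gfra1, Gfra2 and Ret. All 9 are among the 32543 genes of the deposited tables, and 5 of them passed the filter on low counts together with 14157 genes in all. The libraries are RNA sequencing of GFP-positive cells sorted from the amygdala of mouse embryos at stage E16.5. The sorted population is labelled as amygdalar intercalated cells, small clusters of GABAergic neurons around the basolateral amygdala. The design text speaks of triplicates, while the labels list 4 libraries per genotype. There are 4 knockout libraries from Tshz1GFP/RA embryos and 4 control libraries from Tshz1GFP/+ embryos, all on an outbred background. Both genotypes carry the GFP allele, so the controls have a single other Tshz1 allele, and the labels do not say what the RA allele lacks. Each library is a pool of tissue from embryos of 1 genotype, and the sort depends on GFP from the Tshz1 locus. A title prefix (NX, NY, QT or RM) is shared by 1 knockout and 1 control library, and neither its meaning nor separate litters for the pools are given in the labels, so p-values measure the spread between these pools.

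Neurotrophins are secreted proteins that act through Trk receptor tyrosine kinases and through the p75 receptor encoded by Ngfr. BDNF binds TrkB (Ntrk2) and NT-3 (Ntf3) binds TrkC (Ntrk3), and both receptors signal through adaptors to the PI3K and MAPK kinases that promote survival and differentiation of neurons. GDNF-family ligands bind a GPI-anchored GFR-alpha protein, Gfra1 for GDNF and Gfra2 for neurturin, which presents the ligand to the receptor tyrosine kinase Ret. GFR-alpha proteins can also act without Ret, for example with the adhesion molecule NCAM.

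Trk genes make kinase forms and truncated forms that lack the kinase, and the deposited counts add all forms of a gene together. The sequences below show where the coding parts separate in GENCODE (GRCm38): small letters are the last 12 shared coding bases and capitals are the bases after the split, at most 60 of them. An Ntrk2 kinase transcript (Ntrk2-201, 8744 bases, 2466 of them coding with the stop codon) and a truncated one (Ntrk2-202, 6846 bases, 1431 coding) share 1393 coding bases, and the truncated form then has only 38 of its own. For Ntrk3 the kinase transcript Ntrk3-201 (2478 coding bases) and the truncated Ntrk3-202 (1839 coding bases) share 1585. Each shown stretch spans introns in the genome. The Ntrk2 stretches lie on the plus strand at chr13:58878251-58985861 (kinase) and chr13:58878251-58932060 (truncated). The Ntrk3 stretches lie on the minus strand at chr7:78260355-78356038 (kinase) and chr7:78304367-78356038 (truncated).
Ntrk2-201, kinase: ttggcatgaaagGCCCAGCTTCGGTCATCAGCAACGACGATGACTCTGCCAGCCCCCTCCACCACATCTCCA
Ntrk2-202, truncated: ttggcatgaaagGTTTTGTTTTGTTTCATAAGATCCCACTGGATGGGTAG
Ntrk3-201, kinase: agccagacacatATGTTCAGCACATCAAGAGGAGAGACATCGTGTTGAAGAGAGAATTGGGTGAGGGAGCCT
Ntrk3-202, truncated: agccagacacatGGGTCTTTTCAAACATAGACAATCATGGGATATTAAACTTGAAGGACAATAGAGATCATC

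Library totals ran from 6384571 to 13295690 expected counts in knockout libraries and from 5785612 to 14535867 in control libraries. The detection floor was set at 3 counts, which is 0.206 to 0.519 CPM (counts scaled to library size) on these totals. The CPM levels below are also TMM-scaled for library composition, so levels are set against the floor in counts. Tshz1 itself, which checks the labels, had 79.1 ± 29.4 CPM in knockout and 381 ± 115 CPM in control libraries (SD, n = 4 each) without overlap. It fell by 2.27 on the log2 scale (SE 0.30), with an adjusted p of 0.0388 by the quasi-likelihood F test of edgeR, adjusted after Benjamini and Hochberg over all tested genes. With 1 library left out the log2 fold change ran from -2.55 to -2.12 and the edgeR adjusted p from 0.0211 to 0.183, over 0.05 without NY, QT or RM of the knockout and without NX, QT or RM of the control. Gad1, Gad2 and Slc32a1, which define GABAergic neurons, were detected in all libraries. So were the progenitor gene Fabp7 and the pallial gene Neurod6. The microglia list of 8 genes summed to 18.9 to 74.3 TPM (transcripts scaled by length and library size) in knockout and 8.12 to 115 TPM in control libraries, and the pallial glutamatergic list of 7 genes to 146 to 404 TPM and 32.2 to 250.3 TPM.

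Of the 5 members that could be tested, 0 changed between knockout and control in edgeR, where 0.0353% of all tested genes passed (5 of 14157). None of the 5 had an unadjusted p under 0.05, against 3.62% of all tested genes. DESeq2 and limma-voom also called 0 members, where they called 0.249% and 0.0141% of all tested genes, and limma-voom gave Ntrk3 an unadjusted p of 0.0375. The 4 untested members, Bdnf, Ntf3, Ret and Gdnf, were near or under the floor in nearly every library. The absence of a call does not show that the levels were alike, and the intervals of each receptor are given below.

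**Figure D1:**
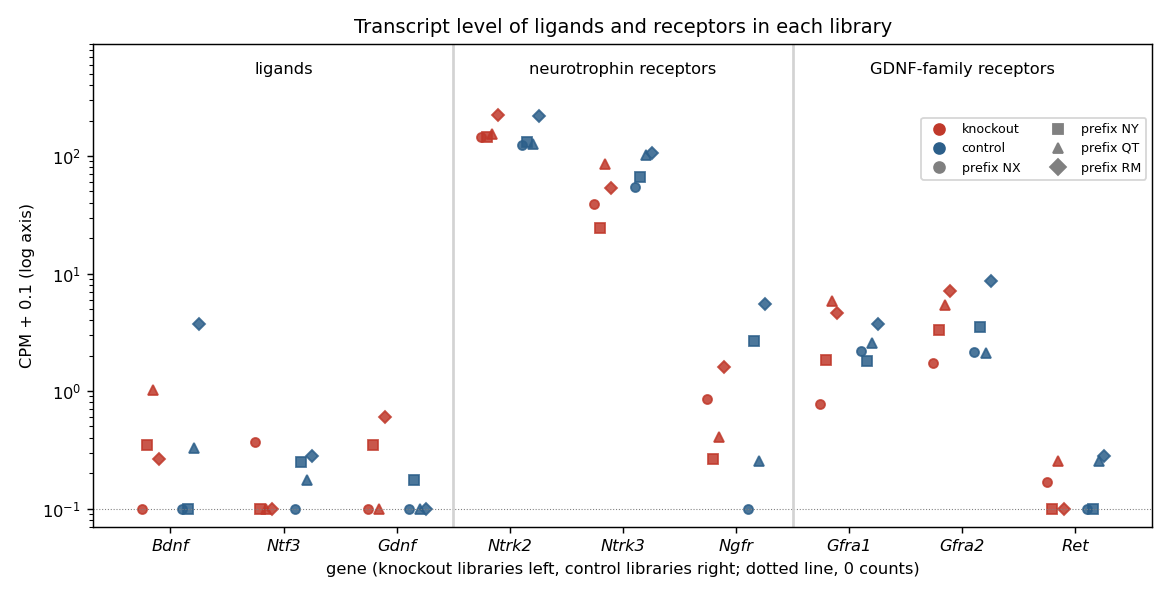
Level of the 9 genes in each of the 8 libraries, as CPM plus 0.1 on a log axis. Knockout libraries are red and left of the blue control libraries, and the marker shape gives the title prefix. Ntrk2 and Ntrk3 lie above 20 CPM in every library, the GFR-alpha genes between 0.681 and 8.54 CPM, and the ligands and Ret mostly at or near 0 counts.

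The ligands were the least abundant members together with Ret. Positions beside each protein-coding member are those of the whole gene in GRCm38. Bdnf, the main TrkB ligand of the forebrain (chr2:109674700-109727007, plus strand), had 0 (NX), 3 (NY), 6 (QT) and 1 (RM) counts in knockout libraries, against 0 (NX), 0 (NY), 3 (QT) and 20 (RM) counts in control libraries. A single control library, RM, holds 20 of the 23 control counts. In GENCODE an antisense gene, Gm45346, lies over Bdnf exons. The strand handling is not stated, and counts taken without strand could not separate the 2 genes. Ntf3, the TrkC ligand (chr6:126101412-126166910, minus strand), had 4 counts in the knockout NX library and 0 in the other 3 knockout libraries, against 0 (NX), 2 (NY), 1 (QT) and 1 (RM) in control libraries. Its 3 control libraries with counts were all under the floor, so no fold is given. Gdnf (chr15:7810846-7837575, plus strand) had 3 counts in each of the knockout libraries NY and RM and 0 in NX and QT, against 1 count in the control NY library and 0 in the other 3. Each of the 3 ligands reached 3 counts or more in at least 1 library, and a library with 0 counts allows a level up to its floor.

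Further ligands of the pathway were as scarce. Ntf5, Nrtn (neurturin), Pspn (persephin) and Gdf15 had 0 counts in all 8 libraries. Artn (artemin) had 3 counts over the knockout libraries and 1 over the control libraries. Transcripts of the ligands named here were thus few in either genotype, at depths of 5785612 counts or more.

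Ntrk2, the TrkB gene (chr13:58806569-59133970, plus strand), had 146 (NX), 145 (NY), 155 (QT) and 222 CPM (RM) in knockout libraries, against 124 (NX), 131 (NY), 126 (QT) and 220.4 CPM (RM) in control libraries. The RM libraries were the highest of both genotypes, and the genotypes overlapped. In CPM the knockout library was above its control in 4 of 4 prefixes, although the RM libraries were nearly level. In TPM this held in 3 of 4: RM had 34.4 TPM in knockout and 44.1 TPM in control. The group means were 167 ± 36.9 CPM in knockout and 150.2 ± 46.9 CPM in control libraries (SD, n = 4 each). The log2 fold change was 0.15 (SE 0.24, edgeR adjusted p = 1.00), and 2 SE on each side reach from -0.33 to 0.64. The exact two-sided permutation p of log2 CPM was 0.457.

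Ntrk3, the TrkC gene (chr7:78175959-78738012, minus strand), was the member with the smallest p. It had 39.4 (NX), 24.4 (NY), 85.9 (QT) and 53.7 CPM (RM) in knockout libraries, against 54.2 (NX), 66.0 (NY), 101 (QT) and 107 CPM (RM) in control libraries. Each knockout library lay below the control library of its prefix, at 72.5% (NX), 37.0% (NY), 84.7% (QT) and 50.3% (RM) of it, as did 8.49% of all tested genes (1202 of 14157). The genotypes overlapped because the knockout QT library was above the control NX and NY libraries.

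The means of Ntrk3 were 50.8 ± 26.2 CPM in knockout and 82.1 ± 25.9 CPM in control libraries (SD, n = 4 each), and the fitted level was 1.62-fold lower in the knockout. The log2 fold change was -0.69 (SE 0.35; 2 SE on each side reach from -1.40 to 0.02), and edgeR gave an unadjusted p of 0.0729 and an adjusted p of 1.00. The exact two-sided permutation p was 0.114, where 4 against 4 libraries can reach 0.0286 at the least. Both tests leave the title prefix out. With the prefix as a block, edgeR gave -0.78 (SE 0.22), an unadjusted p of 0.00416 and an adjusted p of 0.321, so Ntrk3 was still not called. Ntrk3 was fitted lower in 24 of 24 settings, and its log2 fold change was -1.07 without the knockout QT library and -0.46 without the knockout NY library. Of the 12 intercalated cell markers, 11 were also fitted lower, against 50.6% of all tested genes. Tshz1 is among the 11 and was the only one that passed the test. It is the gene altered in the knockout, so its fall follows from the genotype and says nothing about the other markers. The list, with Tshz1 included, had overlapping summed levels of 930.2 to 1935 TPM in knockout and 1466 to 2919 TPM in control libraries. Other lists fitted lower too, with 0 genes called: microglia 7 of 7 tested genes, oligodendrocyte precursor 4 of 5, astrocyte 3 of 3 and vascular and meningeal 2 of 2, while 5 of 7 pallial genes were fitted higher. The part of these cells in the Ntrk3 result was not tested, and in pooled cells fewer cells of a type and less RNA per cell cannot be told apart.

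**Figure D2:**
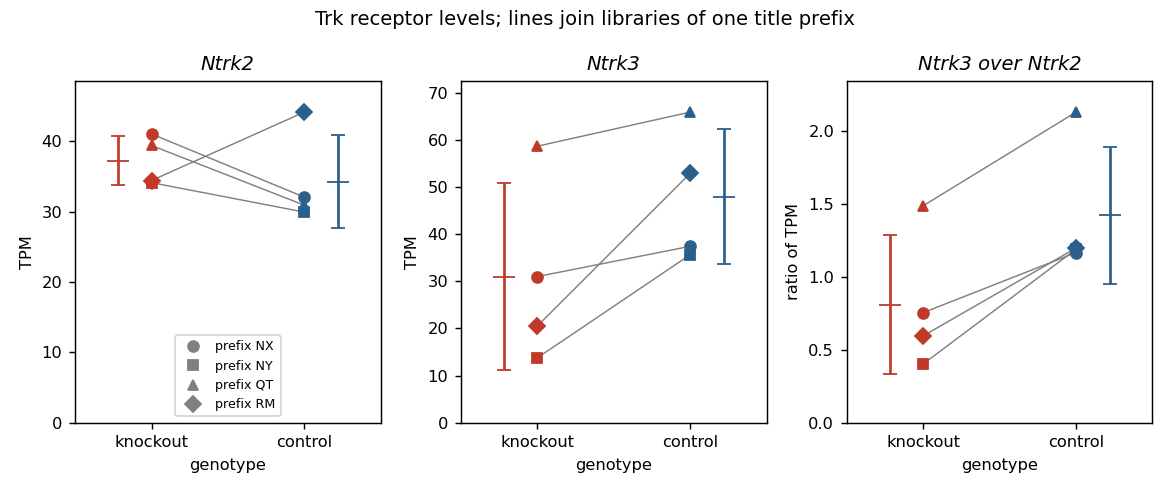
TPM of Ntrk2 and of Ntrk3 and the ratio of Ntrk3 to Ntrk2 in knockout (red) and control (blue) libraries, with grey lines joining libraries of 1 title prefix. Bars beside the points give the mean and SD of 4 libraries. All 4 lines of Ntrk3 and of the ratio are lower at the knockout end, and the QT prefix lies highest in both.

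Per length, the 2 Trk genes stood in a different order in the genotypes, while in CPM Ntrk2 lay above Ntrk3 in every library. Ntrk2 had 37.2 ± 3.50 TPM and Ntrk3 31.0 ± 19.8 TPM in knockout libraries, against 34.3 ± 6.64 and 47.96 ± 14.2 TPM in control libraries (SD, n = 4 each). The ratio of Ntrk3 to Ntrk2, chosen after these levels were seen, was 0.756 (NX), 0.404 (NY), 1.49 (QT) and 0.597 (RM) in knockout libraries, against 1.17 (NX), 1.19 (NY), 2.13 (QT) and 1.199 (RM) in control libraries. It was above 1 in every control library and below 1 in every knockout library except QT, which also lay above 3 of the controls. The mean ratio was 0.811 ± 0.474 in knockout and 1.42 ± 0.473 in control libraries. The exact two-sided permutation p of the log ratio was 0.114.

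RSEM gives each gene the mean length of its transcripts weighted by their abundance, a value that moves with the isoform mix. For Ntrk2 it was 8246 (NX), 7814 (NY), 7654 (QT) and 7522 bases (RM) in knockout libraries, against 8415 (NX), 7718 (NY), 8023 (QT) and 7603 bases (RM) in control libraries. All 8 values lie between the 6846 bases of the truncated and the 8744 bases of the kinase transcript shown above. The authors' transcripts carry other identifiers, and they were not matched to these forms. The means were 7809 ± 315 bases in knockout and 7940 ± 363 bases in control libraries (n = 4 each, exact permutation p = 0.629).

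For Ntrk3 the weighted length was 3118 (NX), 3364 (NY), 3038 (QT) and 3209 bases (RM) in knockout libraries, against 3295 (NX), 3389 (NY), 3197 (QT) and 3253 bases (RM) in control libraries. All 8 values lie below both Ntrk3 transcripts shown above (3977 bases truncated and 19703 bases kinase), so they are not a mix of those 2 forms alone. The knockout library was shorter in 4 of 4 prefixes, by 101 bases on average, and the genotypes overlapped (exact permutation p = 0.257, n = 4 each). The Ntrk2 value was shorter in 3 of 4. Glial cells carry much truncated TrkB as background, and the astrocyte list summed to 4.03 to 22.1 TPM in knockout and 0.91 to 22.2 TPM in control libraries over 6 genes, with Gjb6 at 0 in all. The radial glia and progenitor list of 9 genes summed to 483 to 1689 TPM in knockout and 169 to 1693 TPM in control libraries. Most of the highest sum in each genotype was Fabp7, at 1483 TPM (knockout RM) and 1475 TPM (control NY). The part of glial and progenitor cells in the Trk lengths was not tested.

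**Figure D3:**
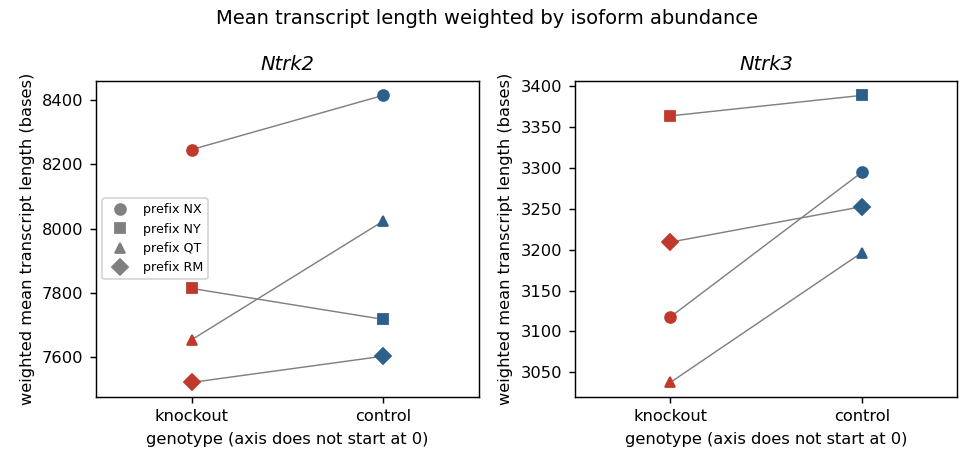
Mean transcript length weighted by isoform abundance, in bases, for Ntrk2 and Ntrk3 in knockout (red) and control (blue) libraries. Grey lines join libraries of 1 prefix, and the axes do not start at 0. Ntrk3 is shorter at the knockout end of all 4 lines and Ntrk2 of 3 of them.

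Ngfr, the p75 neurotrophin receptor (chr11:95568818-95587735, minus strand), was scarce and uneven. It had 0.749 (NX), 0.166 (NY), 0.304 (QT) and 1.50 CPM (RM) in knockout libraries, against 0 (NX), 2.59 (NY), 0.153 (QT) and 5.45 CPM (RM) in control libraries. The control libraries NY and RM had 35.2 and 30.0 expected counts, the other controls 2 (QT) and 0 (NX), and the knockout libraries 2 to 11. The knockout library was below its control in 2 of 4 prefixes and above it in the other two. The log2 fold change was -1.57 (SE 1.27, edgeR adjusted p = 1.00), and limma-voom gave 0.52, the opposite sign. The same control libraries had the highest summed levels of the vascular and meningeal list, 16.95 TPM (NY) and 8.02 TPM (RM) over 9 genes. The other libraries had 0.62 to 3.03 TPM (knockout) and 0.07 to 3.75 TPM (control), with Lum at 0 in all. The control libraries NY and RM were also the highest of all 8 libraries for the microglia list, at 115 TPM (NY) and 102 TPM (RM). Both lists were chosen after their values were seen. The neural crest and Schwann list was instead highest in knockout NX (22.1 TPM) and QT (20.3 TPM), against 11.2 TPM in control NY and 8.80 TPM in control RM. The part of these cell types in the Ngfr values was not tested.

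Gfra1, the GDNF-binding co-receptor (chr19:58235604-58455909, minus strand), had 0.681 (NX), 1.74 (NY), 5.78 (QT) and 4.49 CPM (RM) in knockout libraries, against 2.11 (NX), 1.70 (NY), 2.45 (QT) and 3.63 CPM (RM) in control libraries. The knockout libraries held both the lowest and the highest value and enclosed the controls. The log2 fold change was 0.35 (SE 0.69, edgeR adjusted p = 1.00), and without the knockout QT library it was -0.12. In GENCODE an antisense gene, Gm16277, lies over Gfra1 exons, and the strand handling is not stated, so its reads may be among the counts.

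Gfra2, the neurturin-binding co-receptor (chr14:70890120-70979838, plus strand), had 1.63 (NX), 3.23 (NY), 5.33 (QT) and 6.99 CPM (RM) in knockout libraries, against 2.05 (NX), 3.40 (NY), 1.99 (QT) and 8.54 CPM (RM) in control libraries. RM was highest in both genotypes, and the knockout library was above its control in QT and below it in the other 3 prefixes. The log2 fold change was 0.12 (SE 0.64, edgeR adjusted p = 1.00). It was below 0 in 5 of 24 settings, among them -0.01 without the knockout QT library and -0.21 without the knockout RM library. The 2 SE interval ran from -1.16 to 1.39 for Gfra2 and from -1.03 to 1.73 for Gfra1, so changes of more than 2-fold in either direction lie within it. The expected counts of Gfra2 were whole in 0 of 8 libraries, so part of its fragments were shared with other places.

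Ret, the signalling receptor for both co-receptors (chr6:118151745-118197718, minus strand), had 1 (NX), 0 (NY), 1 (QT) and 0 (RM) counts in knockout libraries, against 0 (NX), 0 (NY), 2 (QT) and 1 (RM) in control libraries. All 8 libraries were under the floor of 3 counts. Gfra3 had 0 counts in all. Gfra4, the persephin co-receptor, stood at 8.39 ± 5.83 TPM in knockout and 8.04 ± 3.95 TPM in control libraries (SD, n = 4 each) and did not pass the test (log2 fold change 0.17, SE 0.59). Ncam1, which can bind GDNF together with GFR-alpha 1, was the most abundant receptor of the pathway at 206 ± 37.1 TPM in knockout and 279.9 ± 55.7 TPM in control libraries (SD, n = 4 each). It was lower in 4 of 4 prefixes in CPM and did not pass (log2 fold change -0.39, SE 0.22, edgeR unadjusted p = 0.0938). Sdc3, a proteoglycan that binds GDNF, did not pass (-0.18, SE 0.27).

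Ordered by their mean level over 8 libraries, Ntrk3 came first at 39.5 TPM (13.8 to 65.9) and Ntrk2 next at 35.7 TPM (29.9 to 44.1), with ranges that overlap. This order held for the control means alone, while in knockout libraries the Ntrk2 mean was above that of Ntrk3. It also rests on TPM: in CPM, not scaled by length, Ntrk2 (124 or more) lay above Ntrk3 (107 or less) in every library. In TPM, Gfra2 followed at 2.28 (1.14 to 4.10), below the lowest Trk value in every library. Gfra1 at 1.13 TPM (0.37 to 2.62) and Ngfr at 0.675 TPM (0 to 2.56) overlapped with it and with each other. Bdnf had 0.291 TPM (0 to 1.54), Ntf3 0.231 TPM (0 to 0.56), Gdnf 0.045 TPM (0 to 0.18) and Ret 0.020 TPM (0 to 0.05). Below Ngfr the values rest on few counts and their order is not resolved.

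**Figure D4:**
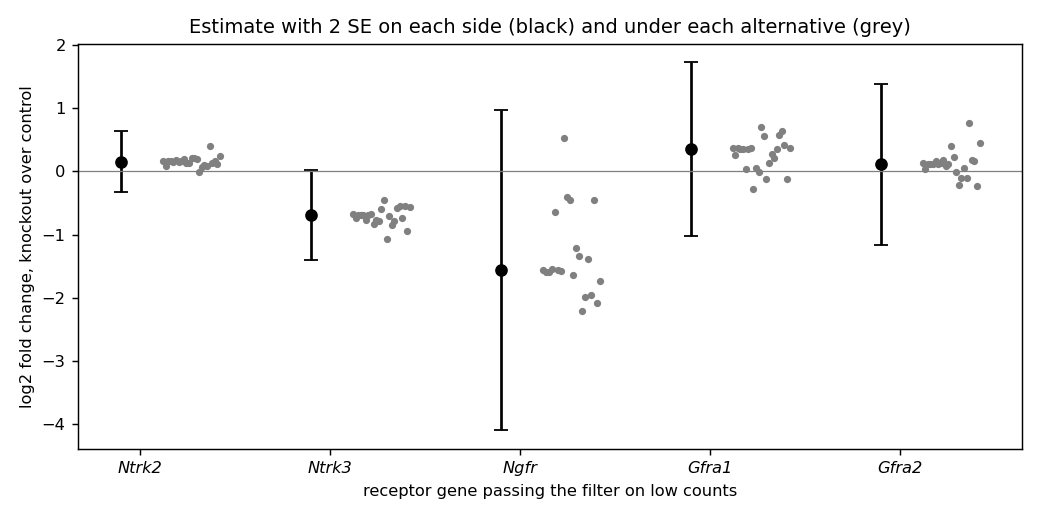
Log2 fold change of knockout over control for the 5 tested receptors, with 2 SE on each side in black and the value under each alternative in grey. The Ntrk3 values all lie below 0, from -1.07 to -0.46, while those of the other 4 genes fall on both sides of 0.

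Among the rest of the pathway, 84 of 99 listed genes were tested and 0 rose or fell in edgeR, where 0.0353% of all tested genes passed. At an unadjusted edgeR p under 0.05 there were 4 of the 84, where 3.62% of all tested genes had such a p in either direction. All 4 were lower, which was seen only afterwards, and 1.91% of all tested genes were lower at that p. DESeq2 called 0 as well. The 84 genes had a median log2 fold change of -0.00, against -0.01 over all tested genes, with 41 fitted higher and 43 lower. The genes named here are those with the smallest p of each list.

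In the PI3K and MAPK kinase list 25 of 25 genes were tested, 16 fitted higher and 9 lower, with a median of 0.11. Akt2, a kinase that acts downstream of PI3K, had 21.4 (NX), 25.4 (NY), 15.98 (QT) and 20.1 CPM (RM) in knockout libraries, against 25.4 (NX), 37.1 (NY), 52.6 (QT) and 40.3 CPM (RM) in control libraries. The groups met at 25.4 CPM, the highest knockout and the lowest control value. The fitted difference was -0.90 on the log2 scale (SE 0.27, edgeR unadjusted p = 0.00567 and adjusted p = 0.975). Rps6ka2, a ribosomal S6 kinase activated by ERK, had 38.0 ± 14.1 CPM in knockout and 64.4 ± 11.9 CPM in control libraries (SD, n = 4 each; log2 fold change -0.76, SE 0.27, edgeR adjusted p = 1.00).

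In the list of sortilin-family receptors and p75 partners, 18 of 19 genes were tested and 13 fitted lower, with a median of -0.14. Lingo1, a partner of p75 in the Nogo receptor complex, had 57.4 (NX), 37.8 (NY), 22.7 (QT) and 44.6 CPM (RM) in knockout libraries, against 68.4 (NX), 55.5 (NY), 71.9 (QT) and 67.8 CPM (RM) in control libraries. It was lower in 4 of 4 prefixes and the knockout NX library lay above the control NY library (log2 fold change -0.70, SE 0.27, edgeR adjusted p = 1.00). Sorl1, a sorting receptor of the sortilin family, had 36.0 ± 5.24 CPM in knockout and 53.2 ± 15.4 CPM in control libraries (SD, n = 4 each) and did not pass.

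Among adaptors, 20 of 21 genes were tested and 12 fitted lower (median -0.04). Sh2b2, an adaptor that binds activated receptor kinases, had 17.9 (NX), 17.9 (NY), 12.6 (QT) and 9.15 CPM (RM) in knockout libraries, against 25.0 (NX), 19.8 (NY), 21.8 (QT) and 18.7 CPM (RM) in control libraries. These groups did not overlap, as was true of 2.59% of all tested genes (366 of 14157), and the gene did not pass (log2 fold change -0.56, SE 0.29). Dok6, a docking protein that binds Ret, had 2.17 ± 1.12 CPM in knockout and 5.23 ± 4.40 CPM in control libraries (SD, n = 4 each) and did not pass. Of the induced targets and feedback genes, 18 of 22 were tested and 11 fitted higher (median 0.13). The NX libraries of both genotypes stood far above the others for the activity-induced transcription factor gene Egr1, chosen after its values were seen. It had 282 CPM in the knockout NX library and 6.49 to 37.1 CPM in the other 3 knockout libraries, against 249 CPM in the control NX library and 2.54 to 45.9 CPM in the other 3 control libraries. Spred1, an inhibitor of MAPK signalling, had 52.3 ± 4.04 CPM in knockout and 45.4 ± 2.04 CPM in control libraries, and Dusp6, a phosphatase of ERK, 1.73 ± 0.786 and 2.84 ± 1.43 CPM (SD, n = 4 each), and neither passed.

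**Figure D5:**
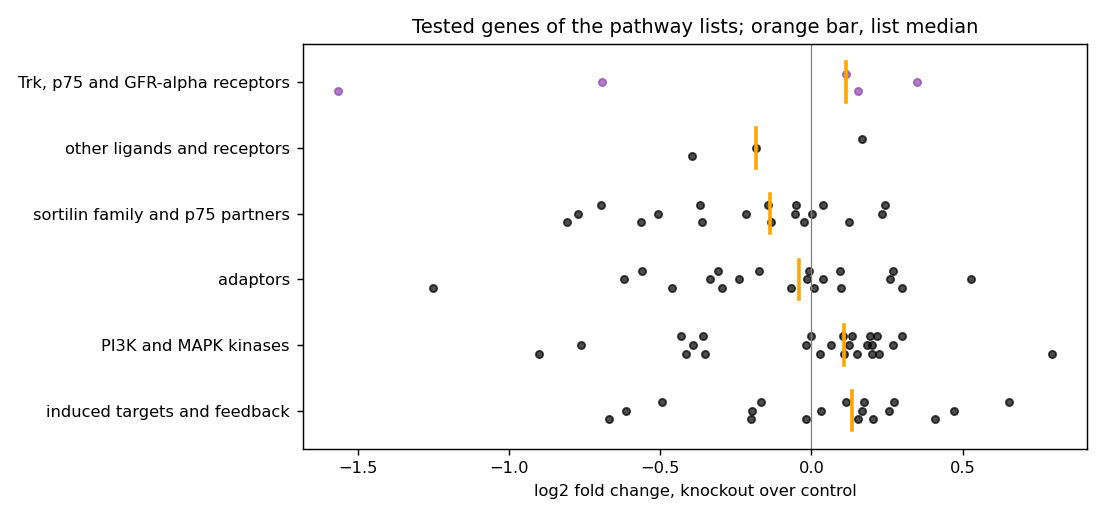
Log2 fold change of knockout over control for each tested gene of the pathway lists, with the list median as an orange bar. The medians run from -0.18 to 0.13, and genes of every list lie on both sides of 0.

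By the root-mean-square difference of centred log2 CPM over the 8 libraries, Ntrk2 was most like Dlgap1 and Auh (0.13 each), among 9360 genes whose mean log2 CPM was 3 or more and whose median difference was 0.52. Ntrk3 was most like Dnajc6 (0.32; median 0.78), Gfra2 like Kcnq1ot1 (0.18) and Gm7102 (0.18; median 0.91), and Ngfr like Diras2 (0.78) and Igf2 (0.81; median 1.67). The nearest genes of Gfra1, and the second of Ntrk3, are named in the files by clone identifiers alone. These are descriptions of 8 libraries.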

How the data were processed

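RNA was measured in 4 knockout and 4 control libraries. Reads were processed by the authors with RSEM 1.2.22, Bowtie2 and Trimmomatic 0.33 on mm10, per the submitters' processing notes; the annotation and the Bowtie2 version were not given in the sources used here. The labels' protocols say that cDNA was amplified with a kit whose strand handling is not stated, and no molecular identifiers are named, so floors cover counting error only. Per the file headers, the deposited files hold expected counts, TPM and a weighted transcript length. Series tables and sample files differed by 0 at most.

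Expected counts were rounded for edgeR 4.0.16 (R 4.3.3) and went through filterByExpr, TMM factors, the quasi-likelihood test with genotype as the single term, Benjamini-Hochberg adjustment over all 14157 tested genes and a threshold of 0.05. CPM are TMM-scaled. Exact permutation tests used all 70 orders of the libraries, on log2 CPM with a prior count of 2. Alternatives changed the scaling, filter, threshold, tool (DESeq2 1.42.0, limma 3.58.1), unit (log2 of TPM plus 1 or 0.1), block and libraries. The procedure was tested on simulated counts. Genes named are the members, Tshz1, per pathway list any called gene and the 2 with the smallest p, and per tested member the 2 most alike genes; others named beside them were chosen after their values were seen. The members and lists were chosen with earlier results of these data known. Positions and sequences come from GENCODE M21 (GRCm38), the build mm10 is made from.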

Additional observations from a re-analysis of the deposited data

Results flagged for a closer look

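Each of 18 groups of 4 libraries (9 genes in each genotype) was compared in CPM by Dixon's criterion, which chance meets in about 1 group in 20. Ntrk2 stood apart in the RM library of both genotypes, at 222 CPM in knockout, where the next library had 155 CPM, and at 220.4 CPM in control, where the next had 131 CPM. In TPM the control RM library still stood apart, with a gap of 0.851 of the group's range, while the knockout RM library, at 34.4 TPM, was not the highest of its group. Bdnf stood apart in the control RM library at 3.63 CPM, with 0.230 CPM in the next one. Ntf3 in the knockout NX library (0.272 CPM, 4 counts) and Gdnf in the control NY library (0.0740 CPM, 1 count) also met the criterion, but the other libraries of their groups were at 0, so any count would have met it.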

How the results depend on the processing

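No member and no other pathway gene was called in any of the 24 settings fitted, where 0 to 0.249% of all tested genes were called. Not every member could be called in each setting. Ntrk2, Ntrk3, Gfra1 and Gfra2 had an adjusted p in 24 settings and Ngfr in 21. Bdnf had one in 2 settings, and Ntf3, Ret and Gdnf in 1 each. The number of genes called over the whole table was 5. It was 9 without composition factors, 19 without a filter, 2 with robust quasi-likelihood, 2 with limma-voom, 40 with DESeq2, 10 with log2(TPM + 1), 11 at a threshold of 0.1 and 0 to 5 with a library left out. It was 3 without both NX libraries and 0 without both NY, QT or RM libraries (edgeR, with 430, 262 and 470 at an unadjusted p under 0.05). Adding the title prefix to the edgeR model (a replicate block) gave 28 genes, and Ntrk3 had a log2 fold change of -0.78 (SE 0.22, unadjusted p = 0.00416, adjusted p = 0.321). Deviations of libraries that share a prefix correlated at 0.066 (QT) to 0.45 (RM), over 0.1 in 3 of 4 prefixes, and in 3 of 4 both libraries correlated best with each other. A pairing was to be used only with a correlation over 0.1 in every prefix, which QT did not meet, so the other values are unpaired. With a library left out, the log2 fold change ran from -1.07 to -0.46 for Ntrk3, -0.002 to 0.40 for Ntrk2, -2.21 to -0.45 for Ngfr, -0.12 to 0.70 for Gfra1 and -0.21 to 0.77 for Gfra2. Apart from the fits with a library left out, the sign turned for Ngfr with limma-voom (0.52). For Gfra1 it turned with limma-voom (-0.27), log2(TPM + 0.1) (-0.017) and without both QT libraries (-0.12). Without both QT libraries it also turned for Gfra2 (-0.23) and Sdc3 (0.028). For Spred1 it turned in TPM (-0.016 with a pseudocount of 1 and -0.017 with 0.1). The causes were not tested. Genes under 3 counts per library cannot be compared at this depth.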

Other observations

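Egr2, a transcription factor gene induced by growth factor signalling and chosen after its values were seen, did not pass the filter on low counts. It had 27 (NX), 9 (NY), 0 (QT) and 1 (RM) counts in knockout libraries, against 1 (NX), 0 (NY), 1 (QT) and 2 (RM) in control libraries. Nearly all knockout counts come from NX and NY, and the other two libraries lie within the control range. Fos, Fosb and Egr3, also chosen after their values were seen, were highest in the NX libraries of both genotypes. Fos had 69.7 CPM in knockout NX and 57.0 CPM in control NX, Fosb 141 and 143 CPM, and Egr3 101 and 179.8 CPM, with 26.8 CPM or less in every other library. The list as a whole did not share this: Npy (0.817 CPM in knockout NX, 1.18 CPM in control NX) and Etv1 (8.03 and 6.82 CPM) were lowest there.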
